A study of Homo sapiens with 12 samples.

Results

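The genes described here encode the linker histones H1.0 (H1F0) and H1X (H1FX) and the replacement histones H2A.X (H2AFX), H2A.J (H2AFJ), H2A.Z (H2AFZ and H2AFV), macroH2A (H2AFY and H2AFY2) and H3.3 (H3F3A and H3F3B). They were chosen by symbol, and all 10 symbols were among the 56609 rows of the count table. All 10 also passed the filter on low counts, which left 21698 genes to test. RNA came from A375, an established human malignant melanoma cell line. Wild-type A375 cells and A375 cells with a CRISPR/Cas9 knockout of MAPKAPK2, which encodes MK2, a kinase downstream of p38, were each kept for 48 h in 500 nM JQ1 or in DMSO. JQ1 is an inhibitor of BET bromodomain proteins, which bind acetylated chromatin. Each of the 4 groups had 3 libraries, made from total RNA depleted of ribosomal RNA. The labels do not say whether the knockout cells are 1 clone or a pool, nor whether the replicates were separate cultures, so the p-values measure the spread between these libraries, which may be technical. Sample titles call the cells without drug untreated, while the treatment labels say DMSO, and the latter were followed.

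Nucleosomes are built from core histones H2A, H2B, H3 and H4, and a linker histone binds where DNA enters and leaves them. The canonical histones come from clustered genes whose messages lack a poly(A) tail and are made in S phase, when DNA is copied. Replacement histones come from single genes outside those clusters, are mostly made as polyadenylated messages through the cell cycle, and are put into chromatin by dedicated chaperones. H1.0 is the linker histone known to accumulate in resting and differentiated cells. H2A.Z sits at promoters and enhancers, H2A.X is phosphorylated around DNA breaks, macroH2A carries a large extra domain and is linked to silenced chromatin, H2A.J accumulates in senescent cells, and H3.3 marks active genes and is also placed at telomeres.

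H3.3 and H2A.Z are each encoded by a pair of genes on different chromosomes, which a count table can tell apart only through bases that differ. Both H3.3 genes encode the same protein, and the H2A.Z genes encode nearly the same protein. The first 90 coding bases of each are shown 5′ to 3′ from the GENCODE 29 transcripts (GRCh38), with the bases that differ within the pair in capitals. The genes lie at chr1:226061851-226072001 on the plus strand (H3F3A), chr17:75776434-75785893 on the minus strand (H3F3B), chr4:99948086-99950388 on the minus strand (H2AFZ) and chr7:44826791-44848083 on the minus strand (H2AFV).
H3F3A: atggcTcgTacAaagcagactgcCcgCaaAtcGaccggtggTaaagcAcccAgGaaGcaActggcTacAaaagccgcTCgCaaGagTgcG
H3F3B: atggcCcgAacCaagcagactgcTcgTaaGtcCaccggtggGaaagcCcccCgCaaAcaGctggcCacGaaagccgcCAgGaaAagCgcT
H2AFZ: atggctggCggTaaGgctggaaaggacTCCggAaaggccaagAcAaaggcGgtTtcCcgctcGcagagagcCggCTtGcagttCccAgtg
H2AFV: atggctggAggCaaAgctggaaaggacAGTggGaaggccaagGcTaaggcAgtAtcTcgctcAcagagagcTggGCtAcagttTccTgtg

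Over the whole coding sequence of 408 bases the H3.3 genes differed at 88 bases, 77 of them at the third base of a codon, for an identity of 78.4%. The H2A.Z genes differed at 75 of 384 bases, 64 of them at the third base of a codon, for an identity of 80.5%. The longest run without a difference was 14 bases in the H3.3 pair and 23 bases in the H2A.Z pair. No 31-base stretch of coding sequence is therefore the same within either pair, and the genes of a pair could be counted apart from each other.

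Copies elsewhere in the genome were a larger concern for some members. Of the 31-base stretches of the longest coding transcript, none of H1F0, H1FX, H2AFY or H2AFY2 occurred in a transcript of another gene. The share was 3.09% for H2AFJ, 3.91% for H2AFX, 6.6% for H2AFV, 13.8% for H3F3A, 14.1% for H3F3B and 20.1% for H2AFZ. The stretches of H3F3A were shared mostly with the processed copy H3F3AP4, those of H3F3B with H3F3C and those of H2AFZ with its processed copies. Of 13 rows for such copies in the count table, only H3F3AP4 reached a mean of 1 CPM, where CPM is counts per 1000000 of the library after scaling. H3F3AP4 ran from 0 to 533 counts across libraries, with groups that overlapped in every comparison, so reads may have been split between it and H3F3A.

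Promoter sequences in RefSeq (GRCh38.p14) matched 9 of the 10 members, all but H1F0, with 13 start sites in all. H3F3A and H2AFY had more than 1 start site, each counted separately. Some windows of H3F3A overlapped, so the 13 are not independent promoters. CCAAT, on either strand, occurred in the 250 bases before the start in 9 of the 13, against 32.0% of 35116 RefSeq promoters. TATAAA occurred in 4 of 13 (10.7% of all promoters), in H1FX, H2AFX, H2AFZ and H3F3B, and GGGCGG in 7 of 13 (42.6% of all). AAACACA, the H1 box, occurred in 1 (4.82% of all) and CACGTG in none (6.34% of all). Stretches of 120 bases before the start are shown for a gene that rose with JQ1 and holds both CCAAT and TATAAA (H2AFX), one that rose and holds TATAAA but not CCAAT (H1FX), one that rose and holds CCAAT but not TATAAA, with GGGCGG as well (H2AFV), and the gene that fell (H2AFY2), which holds none of the 5 motifs. Capitals mark CCAAT and TATAAA on either strand, so ATTGG is CCAAT on the other strand. H2AFZ, not shown, also holds both motifs marked in capitals, yet its log2 fold change with JQ1 in wild-type cells was 0.03 (adjusted p = 0.715 by edgeR). H1F0, which had the largest rise, had no promoter entry. Whether these motifs go with the JQ1 response was not tested. The stretches shown lie at chr11:119095468-119095587 (minus strand), chr3:129316287-129316406 (minus strand), chr7:44848088-44848207 (minus strand) and chr10:70052676-70052795 (plus strand).
H2AFX: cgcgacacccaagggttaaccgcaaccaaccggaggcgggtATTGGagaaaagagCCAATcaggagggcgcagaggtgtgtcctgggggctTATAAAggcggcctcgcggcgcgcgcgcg
H1FX: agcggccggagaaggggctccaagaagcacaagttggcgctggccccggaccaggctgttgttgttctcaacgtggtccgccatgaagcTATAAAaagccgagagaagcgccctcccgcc
H2AFV: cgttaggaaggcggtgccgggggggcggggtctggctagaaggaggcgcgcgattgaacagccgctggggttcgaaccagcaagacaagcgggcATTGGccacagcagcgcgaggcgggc
H2AFY2: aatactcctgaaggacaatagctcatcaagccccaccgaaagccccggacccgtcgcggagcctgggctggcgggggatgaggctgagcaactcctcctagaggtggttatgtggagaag

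Library totals ran from 25316899 to 34594295 estimated counts. MAPKAPK2 averaged 89.6 CPM in wild-type DMSO (range 87.9 to 92.1) and 12.4 CPM in knockout DMSO (11.1 to 13.2), which was 13.9% of wild type, and its JQ1 groups gave 12.3%. The melanoma markers SOX10, AXL and MITF averaged 500.0, 328 and 35.4 CPM, while the pigment genes PMEL, MLANA, TYR, DCT and TYRP1 were each under 1 CPM. Of 6 fibroblast markers only LUM and PDGFRB averaged 1 CPM or more, with a summed level of 12.9 to 17.5 CPM over the DMSO libraries and 3.29 to 5.78 CPM over the JQ1 libraries, and their part in the JQ1 results was not tested. Of 6 keratinocyte markers KRT10 and KRT14 averaged 4.5 and 1.02 CPM, KRT1 and CDH1 were at 0 in every library, and the summed level was 4.0 to 7.12 CPM. Of the immune markers only CD68 averaged 1 CPM or more, and of the endothelial markers none did. RN7SK, RN7SL1, RN7SL2 and RMRP, which are abundant noncoding RNAs, took a summed 9.42 to 9.76% of the counts in wild-type DMSO, 10.6 to 11.7% in wild-type JQ1, 10.5 to 11.6% in knockout DMSO and 11 to 14.6% in knockout JQ1. Replicate 3 of knockout JQ1 held the 14.6% and stood apart in several members, so values without it are given beside those results, and the part of this share in the results was not tested.

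**Figure D1:**
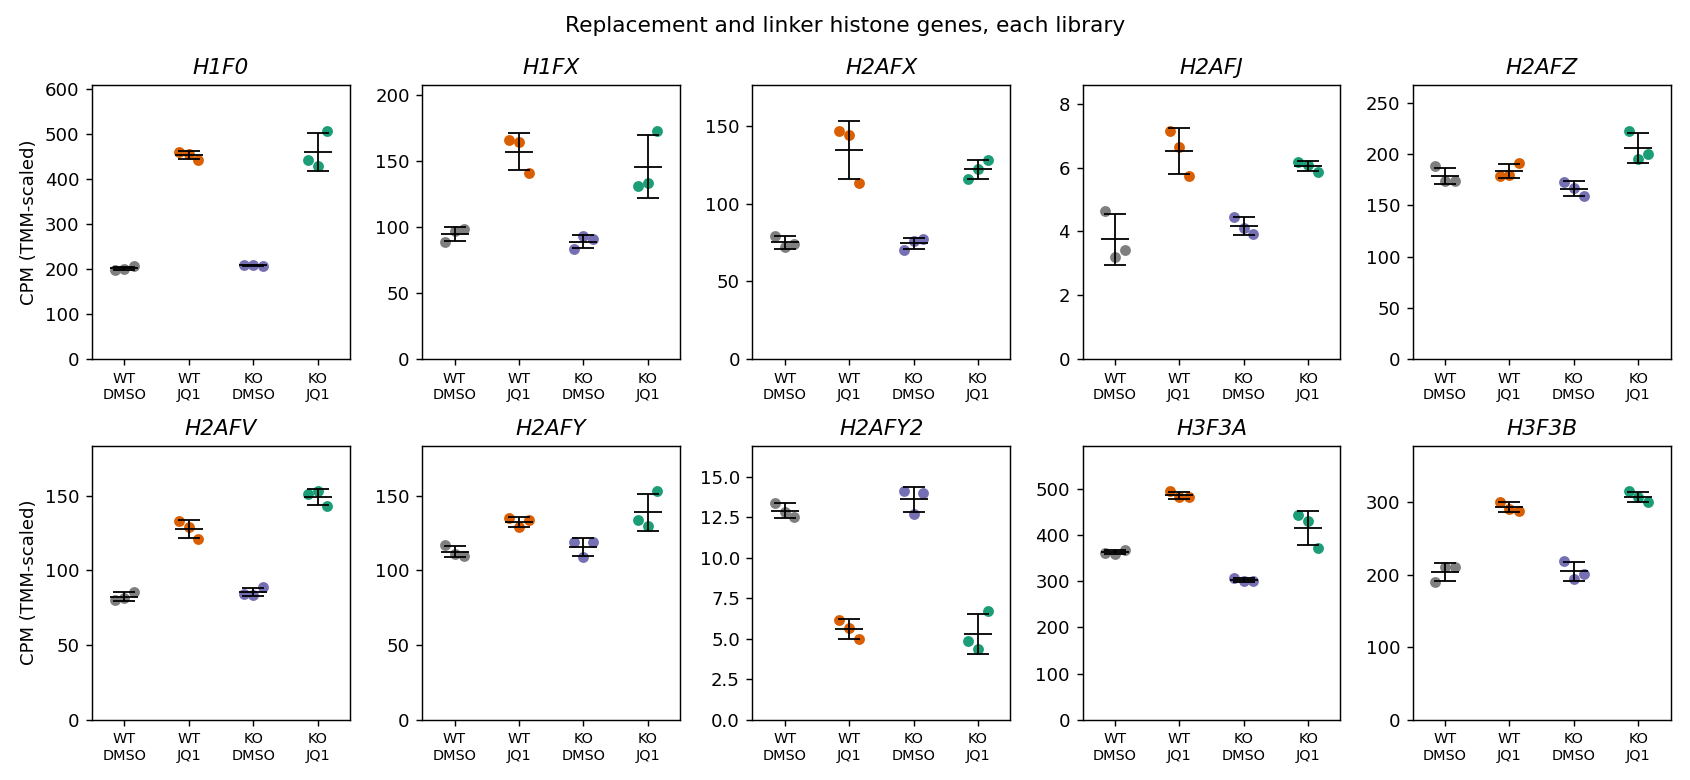
Level of each of the 10 genes in CPM (vertical axes, each starting at 0) in the 3 libraries of the 4 groups. Points are libraries, the long bar is the mean and the whiskers are 1 SD. H1F0 lay at 198 to 210 CPM in the 6 DMSO libraries and at 429 to 508 CPM in the 6 JQ1 libraries, and H2AFY2 lay the other way round.

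JQ1 raised the RNA of most replacement and linker histone genes in cells of either genotype. In wild-type cells 8 of the 10 genes rose, H2AFY2 fell and H2AFZ did not pass the test, where a gene passed at a Benjamini-Hochberg adjusted p under 0.05 in edgeR's quasi-likelihood test over the 21698 genes. Of all genes tested, 33.1% passed in that comparison, 16.9% as higher and 16.2% as lower. In knockout cells 9 of the 10 rose and H2AFY2 fell, where 34.4% of all genes passed, 16.7% as higher and 17.8% as lower. The median log2 fold change of the 10 genes was 0.58 in wild-type and 0.56 in knockout cells, beside -0.03 and 0.0 over all genes tested. The replicates of the groups did not overlap for 9 of the 10 genes in wild-type and for all 10 in knockout cells, a state found in 50.4% and 42.3% of all genes. RNA was taken from whole cultures, so more RNA in each cell and more cells that express a gene cannot be told apart. Scaling by library totals in place of TMM moved the median of all genes to -0.16 and -0.12 and the calls to 2298 higher and 5368 lower in wild-type cells and 2409 higher and 5250 lower in knockout cells, against 3665 and 3522, and 3616 and 3856, under TMM.

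H1F0, a gene with 1 exon at chr22:37805093-37807436, had the largest rise of the 10. In wild-type DMSO its libraries held 198, 201 and 206 CPM, and in wild-type JQ1 460, 456 and 443 CPM. In knockout DMSO they held 210, 209 and 208 CPM, and in knockout JQ1 442, 429 and 508 CPM. Every JQ1 library was above every DMSO library, and the genotypes overlapped under JQ1. The rise was 2.25-fold in wild-type cells (log2 1.17, SE 0.06, adjusted p = 3.53e-09 by edgeR) and 2.2-fold in knockout cells (log2 1.13, SE 0.06, adjusted p = 3.44e-09 by edgeR). Without replicate 3 of knockout JQ1 the rise in knockout cells was 1.06 on the log2 scale. Among the 11251 genes that averaged 5 CPM or more, 0.684% in wild-type and 0.791% in knockout cells had a higher log2 fold change than H1F0.

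H1FX, at chr3:129314771-129316277, encodes a linker histone that is made through the cell cycle. It held 89.0, 97.3 and 98.3 CPM in wild-type DMSO and 166, 164 and 141 CPM in wild-type JQ1. In knockout cells it held 83.1, 92.9 and 90.9 CPM in DMSO and 131, 133 and 173 CPM in JQ1. The drug groups did not overlap in either genotype, and the third replicate was the lowest of wild-type JQ1 and the highest of knockout JQ1. H1FX rose by 0.73 on the log2 scale in wild-type cells (SE 0.10, adjusted p = 5.14e-05 by edgeR) and by 0.72 in knockout cells (SE 0.10, adjusted p = 5.37e-05 by edgeR). Without replicate 3 of knockout JQ1 the rise in knockout cells was 0.57.

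The antisense gene H1FX-AS1 lies on the plus strand and shares 886 bases of position with H1FX. It moved the other way, from 3.33 ± 0.14 CPM in wild-type DMSO to 1.37 ± 0.368 CPM in wild-type JQ1 (SD, n = 3), and its log2 fold change was -1.29 (adjusted p = 0.000583 by edgeR). In knockout cells it fell by 1.49 (adjusted p = 0.000151 by edgeR). The libraries were strand-specific, but whether the counting used the strand is not given in the sources used here, so reads of the overlap may have gone to either gene.

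The balance between the linker histone genes moved toward H1F0. Within each library the ratio of H1F0 to H1FX counts was 2.13 ± 0.0841 in wild-type DMSO and 2.9 ± 0.21 in wild-type JQ1, while the knockout had 2.36 ± 0.152 in DMSO and 3.17 ± 0.221 in JQ1 (SD, n = 3). Such a ratio does not depend on how libraries are scaled. It rose by 0.44 on the log2 scale with JQ1, averaged over the genotypes, with p = 0.005 in an exact two-sided permutation of the drug labels within genotype, the smallest p that 400 arrangements allow, and 0.006 after adjustment over 6 gene pairs.

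H2AFX, at chr11:119093854-119095467, and H2AFJ, at chr12:14774383-14778002, both rose. H2AFX held 79.5, 71.8 and 73.8 CPM in wild-type DMSO, 147, 144 and 113 CPM in wild-type JQ1, 70.2, 75.7 and 77.3 CPM in knockout DMSO and 116, 122 and 128 CPM in knockout JQ1. No JQ1 library of H2AFX reached down to a DMSO library, and the third library of wild-type JQ1 lay below the other two. H2AFX rose by 0.84 in wild-type cells (SE 0.09, adjusted p = 4.71e-06 by edgeR) and by 0.71 in knockout cells (SE 0.09, adjusted p = 1.9e-05 by edgeR), both on the log2 scale.

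H2AFJ was the member with the fewest counts, 90 to 228 a library. It held 4.65, 3.19 and 3.41 CPM in wild-type DMSO and 7.16, 6.64 and 5.74 CPM in wild-type JQ1. Knockout cells held 4.46, 4.12 and 3.93 CPM in DMSO and 6.17, 6.09 and 5.86 CPM in JQ1. The drug groups did not overlap, though the highest DMSO library of wild type was closer to the JQ1 libraries than the others. H2AFJ rose by 0.79 in wild-type cells (SE 0.14, adjusted p = 0.000586 by edgeR) and by 0.53 in knockout cells (SE 0.14, adjusted p = 0.00984 by edgeR) on the log2 scale. The ratio of H2AFJ to H2AFX differed by -0.10 on the log2 scale with JQ1, which did not pass the exact permutation test (p = 0.285, adjusted 0.285).

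The genes of H2A.Z responded unequally. H2AFZ held 188, 174 and 174 CPM in wild-type DMSO and 179, 180 and 191 CPM in wild-type JQ1, and the groups overlapped. Its log2 fold change there was 0.03 (95% interval -0.10 to 0.17, adjusted p = 0.715 by edgeR), and scaling by library totals gave -0.09. In knockout cells H2AFZ held 173, 167 and 159 CPM in DMSO and 223, 195 and 200 CPM in JQ1, without overlap, and it rose by 0.31 (SE 0.06, adjusted p = 0.00121 by edgeR). H2AFV held 80.2, 81.5 and 85.8 CPM in wild-type DMSO and 133, 129 and 121 CPM in wild-type JQ1, and 84.4, 83.6 and 88.8 CPM in knockout DMSO and 151, 153 and 143 CPM in knockout JQ1. The JQ1 libraries of H2AFV were above the DMSO libraries throughout, and those of the knockout were the highest. H2AFV rose by 0.63 in wild-type cells (SE 0.06, adjusted p = 1.08e-06 by edgeR) and by 0.80 in knockout cells (SE 0.06, adjusted p = 8.02e-08 by edgeR).

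The ratio of H2AFV to H2AFZ counts rose from 0.462 ± 0.0336 to 0.699 ± 0.0606 in wild-type cells and from 0.515 ± 0.0366 to 0.726 ± 0.0531 in knockout cells (SD, n = 3). Averaged over genotypes the rise was 0.55 on the log2 scale (exact permutation p = 0.005, adjusted 0.006). The ratio of H2AFX to H2AFZ rose by 0.60 with the same p, by 0.80 in wild-type and by 0.41 in knockout cells.

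The macroH2A genes moved in opposite directions. H2AFY2, at chr10:70052796-70112280, encodes macroH2A2 and was the member that fell. It held 13.4, 12.8 and 12.5 CPM in wild-type DMSO and 6.19, 5.64 and 5.0 CPM in wild-type JQ1. In knockout cells it held 14.1, 12.7 and 14.0 CPM in DMSO and 4.84, 4.38 and 6.71 CPM in JQ1. Every JQ1 library was below every DMSO library. The level under JQ1 was 43.5% of that in DMSO in wild-type cells (log2 -1.20, SE 0.14, adjusted p = 8.79e-06 by edgeR) and 39.3% in knockout cells (log2 -1.35, SE 0.14, adjusted p = 2.96e-06 by edgeR). Without replicate 3 of knockout JQ1 the latter was -1.56, and 1.41% and 1.46% of the 11251 genes had a lower log2 fold change than H2AFY2 in the respective genotypes.

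H2AFY, at chr5:135333900-135399914, encodes macroH2A1 and rose slightly. It held 110 to 117 CPM in wild-type DMSO against 129 to 135 CPM in wild-type JQ1, and 109 to 119 CPM in knockout DMSO against 130 to 153 CPM in knockout JQ1, without overlap in either genotype. The rise was 0.24 in wild-type cells (SE 0.07, adjusted p = 0.0115 by edgeR) and 0.27 in knockout cells (SE 0.07, adjusted p = 0.00505 by edgeR) on the log2 scale. Under library totals these were 0.11 (adjusted p = 0.19 by edgeR) and 0.15 (adjusted p = 0.0691 by edgeR), so the calls for H2AFY depended on the scaling. Without replicate 3 of knockout JQ1 the rise in knockout cells was 0.20 (adjusted p = 0.0096 by edgeR). The ratio of H2AFY2 to H2AFY fell by 1.55 on the log2 scale (exact permutation p = 0.005, adjusted 0.006), from 0.115 ± 0.00109 to 0.0423 ± 0.00437 in wild-type cells and from 0.118 ± 0.00091 to 0.0378 ± 0.00527 in knockout cells (SD, n = 3). This was the widest shift among the 6 ratios.

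Both H3.3 genes rose. H3F3A held 362, 360 and 368 CPM in wild-type DMSO and 495, 482 and 482 CPM in wild-type JQ1, and 308, 301 and 300 CPM in knockout DMSO and 443, 430 and 373 CPM in knockout JQ1. JQ1 libraries were above DMSO libraries within each genotype, and knockout libraries were below wild-type libraries within each treatment. H3F3A rose by 0.42 in wild-type cells (SE 0.06, adjusted p = 5.59e-05 by edgeR) and by 0.45 in knockout cells (SE 0.06, adjusted p = 2.43e-05 by edgeR), and without replicate 3 of knockout JQ1 the latter was 0.53. H3F3B held 190, 211 and 211 CPM in wild-type DMSO, 301, 291 and 288 CPM in wild-type JQ1, 219, 194 and 201 CPM in knockout DMSO and 315, 307 and 301 CPM in knockout JQ1. It rose by 0.52 (SE 0.06, adjusted p = 8.15e-06 by edgeR) and by 0.59 (SE 0.06, adjusted p = 2.35e-06 by edgeR), with drug groups that did not overlap. The ratio of H3F3B to H3F3A rose by 0.12 on the log2 scale with JQ1 (exact permutation p = 0.005, adjusted 0.006).

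**Figure D2:**
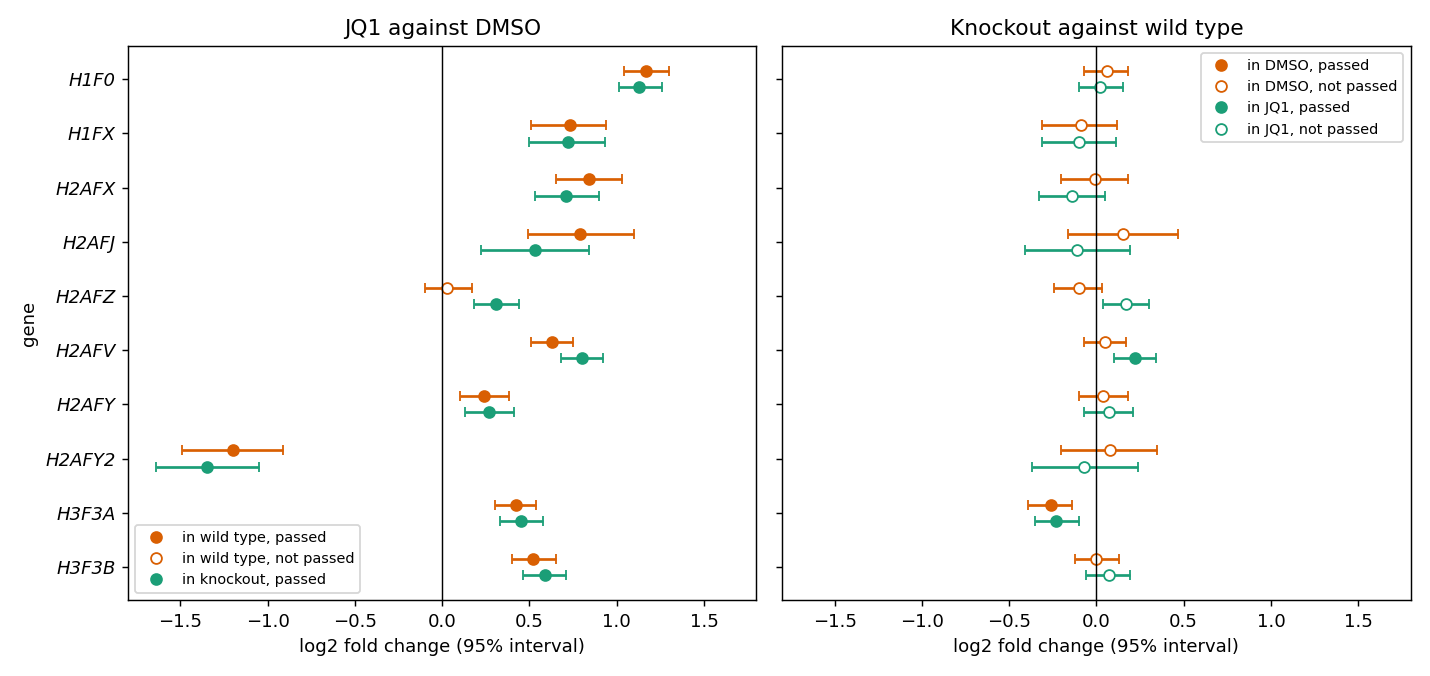
Log2 fold change (horizontal axes) of each of the 10 genes with its 95% interval, for JQ1 against DMSO on the left and for knockout against wild type on the right. Filled points passed an adjusted p of 0.05 and open points did not. On the left every gene but H2AFY2 lies right of 0, with H2AFZ in wild-type cells at 0.03, and on the right only H3F3A is filled in both treatments.

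Few of these genes differed between MAPKAPK2-knockout and wild-type cells, in numbers near the share over all genes tested. In DMSO 1 of the 10 passed the test, H3F3A as lower, where 7.92% of all genes passed, 3.47% as higher and 4.44% as lower. In JQ1 2 of the 10 passed, H2AFV as higher and H3F3A as lower, where 8.57% of all genes passed, 3.01% as higher and 5.56% as lower. The knockout did not overlap the wild type for 3 genes in DMSO (H1F0, H2AFZ and H3F3A) and for 4 in JQ1 (H2AFZ, H2AFV, H3F3A and H3F3B), beside 29.6% and 23.1% of all genes. H1F0 differed by 0.06 in DMSO (95% interval -0.07 to 0.18) and by 0.02 in JQ1 (95% interval -0.10 to 0.15). H2AFY2 differed by 0.08 (95% interval -0.20 to 0.35) and by -0.07 (95% interval -0.37 to 0.24).

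H3F3A in the knockout was at 83.4% of wild type in DMSO (log2 -0.26, SE 0.06, adjusted p = 0.0102 by edgeR) and at 85.4% in JQ1 (log2 -0.23, SE 0.06, adjusted p = 0.0226 by edgeR). The direction held in every alternative, between -0.31 and -0.24 in DMSO and between -0.28 and -0.16 in JQ1. Leaving out 1 library ended the call in DMSO for any wild-type DMSO library and for replicates 2 and 3 of knockout DMSO, with adjusted p of 0.0526 to 0.0664 by edgeR. In JQ1 it ended without any single wild-type library of either treatment, with adjusted p of 0.0521 to 0.0874 by edgeR, and also in a fit of only the JQ1 groups (adjusted p = 0.149 by edgeR). Without replicate 3 of knockout JQ1, which held both the lowest H3F3A level of its group and the 533 counts of H3F3AP4, the difference in JQ1 was -0.16 (adjusted p = 0.021 by edgeR). With the counts of H3F3AP4 added to H3F3A the values were -0.25 (adjusted p = 0.0073 by edgeR) and -0.21 (adjusted p = 0.0178 by edgeR).

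The other H3.3 gene did not follow. H3F3B differed by 0.0 in DMSO (95% interval -0.12 to 0.13) and by 0.07 in JQ1 (95% interval -0.06 to 0.19). The ratio of H3F3B to H3F3A was 0.562 ± 0.0325 in wild-type and 0.675 ± 0.0334 in knockout cells in DMSO, and 0.603 ± 0.00474 and 0.744 ± 0.0548 in JQ1 (SD, n = 3). It was 0.28 higher in the knockout on the log2 scale, with p = 0.005 in the exact permutation of genotype labels within treatment, adjusted 0.03. Of the other 5 pairs, H1F0 to H1FX was 0.14 higher (exact permutation p = 0.02, adjusted 0.06) and the rest had adjusted values of 0.27 to 0.465.

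**Figure D3:**
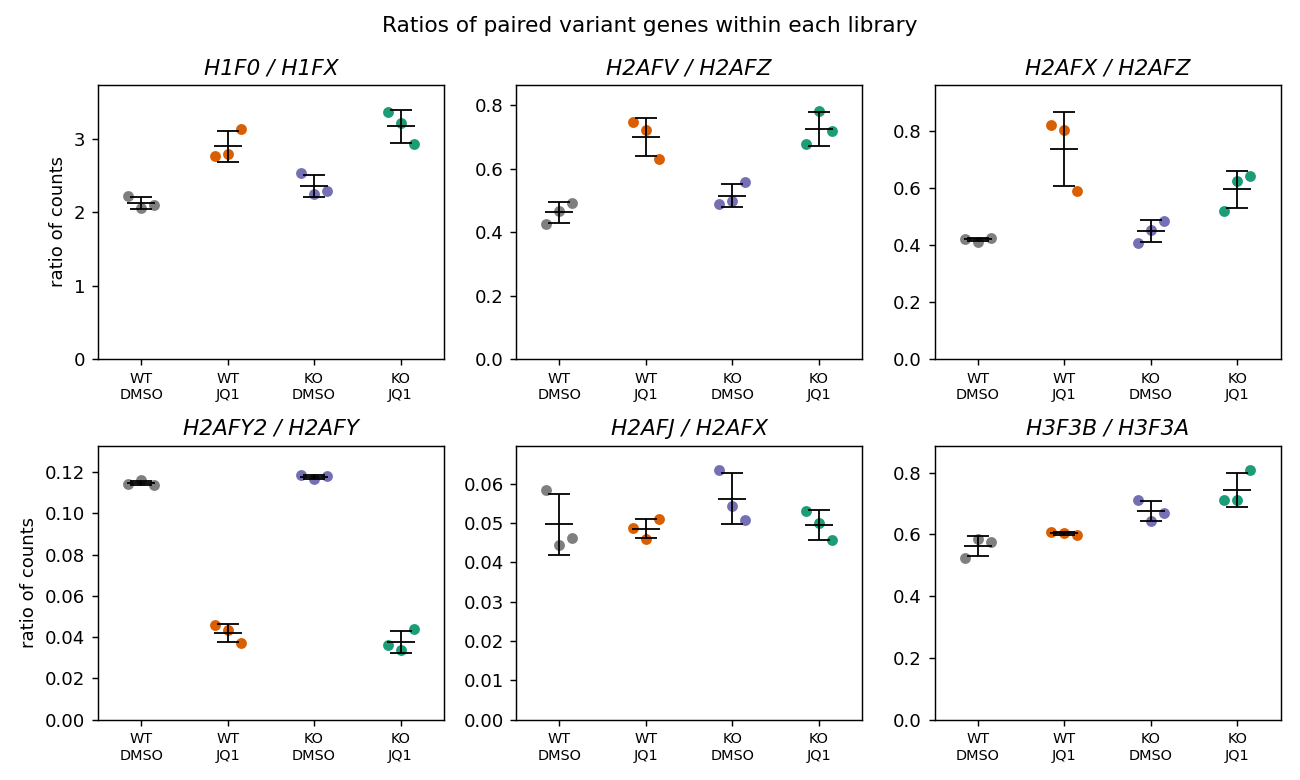
Ratio of the counts of each of 6 gene pairs within a library (vertical axes, each starting at 0) in the 4 groups. Points are libraries, the long bar is the mean and the whiskers are 1 SD. H2AFY2 to H2AFY fell from 0.115 to 0.0423 with JQ1 in wild-type cells, and H3F3B to H3F3A was higher in the knockout, at 0.675 against 0.562 in DMSO.

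H3F3A lies on the same chromosome as the edited gene, 19.3 Mb distal of MAPKAPK2 (chr1:206684944-206734283). A rule chosen after its value was seen took 10 neighbours of H3F3A among genes that averaged 5 CPM or more. They were the next 5 on each side in order of gene start, whatever their distance. All 10 had a log2 fold change below 0 in the knockout in both treatments, with a DMSO range of -0.63 to -0.24 and a JQ1 range of -0.68 to -0.20, and 9 of 10 passed as lower in each. PARP1, which encodes a DNA repair enzyme, lay within this window and was at -0.42 in DMSO (adjusted p = 2.29e-05 by edgeR) and -0.48 in JQ1 (adjusted p = 5.52e-06 by edgeR). The medians of the 10 were -0.42 and -0.48, further below 0 than the -0.26 and -0.23 of H3F3A itself.

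The neighbourhood was not alone in this. Of the 153 genes at that level distal to MAPKAPK2 on chromosome 1, 114 (74.5%) passed as lower in the knockout in DMSO and 122 (79.7%) in JQ1. Of 980 genes on the rest of the chromosome, 48 (4.9%) and 66 (6.73%) did. Over all tested genes, low ones included, 129 of 300 (43.0%) in DMSO and 139 of 300 (46.3%) in JQ1 were lower distal to MAPKAPK2, against 4.32% and 5.36% on the rest of the chromosome. The other 9 members lie on other chromosomes, and none of them passed as lower in the knockout. The part of this position in the difference of H3F3A was not tested.

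**Figure D4:**
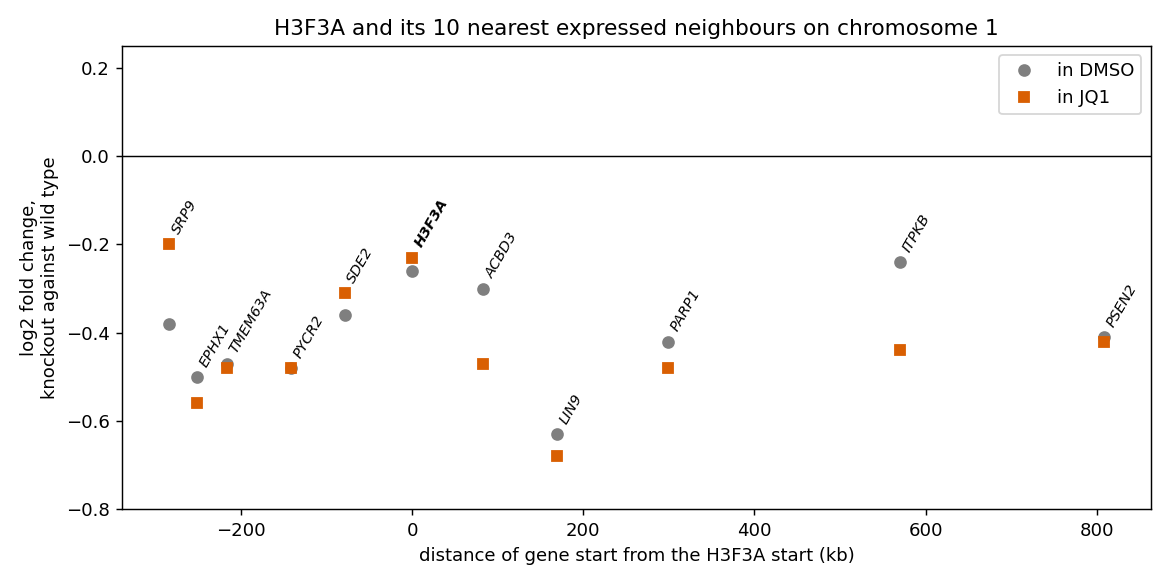
Log2 fold change of knockout against wild type (vertical axis) for H3F3A and the 10 expressed neighbours taken in equal number from its sides. The horizontal axis is the distance of the gene start from that of H3F3A in kb. Circles are DMSO and squares are JQ1. All points lie below 0, and H3F3A at -0.26 and -0.23 is among the nearest to 0.

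H2AFV was 0.22 higher in the knockout under JQ1 on the log2 scale (SE 0.06, adjusted p = 0.0225 by edgeR), and 0.05 higher in DMSO (95% interval -0.07 to 0.17). The call in JQ1 ended under library totals (adjusted p = 0.0552 by edgeR), without the low-count filter (0.092), with only the JQ1 groups (0.113), in limma on the deposited signal (0.059), with the authors' factors (0.0592) and without any 1 of 4 JQ1 libraries (0.0647 to 0.109), which were replicates 2 and 3 of wild type and 1 and 2 of the knockout. H1FX and H2AFX passed as lower in the knockout under JQ1 only after 1 library was left out: H1FX at -0.25 without replicate 3 of knockout JQ1 (adjusted p = 0.039 by edgeR), and H2AFX at -0.25 without replicate 3 of wild-type JQ1 (adjusted p = 0.0466 by edgeR).

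The JQ1 response was compared between genotypes directly, as the interaction. By edgeR 0 of the 10 genes passed, where 0.134% of all genes did, 0.0323% as higher and 0.101% as lower, and 1 of the 10, H2AFZ, had an unadjusted p under 0.05. By DESeq2 and by limma on the deposited signal 0 of the 10 passed as well. H2AFZ rose with JQ1 by 0.27 more in the knockout on the log2 scale (95% interval 0.09 to 0.46, adjusted p = 0.377 by edgeR), so its call in knockout cells alone was not shown to differ from wild type. The difference for H1F0 was -0.03 (95% interval -0.21 to 0.14) and that for H2AFY2 was -0.14 (95% interval -0.55 to 0.27). The other intervals all included 0, and the widest was that of H2AFJ, from -0.69 to 0.17.

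Per kilobase of the longest coding transcript, the levels in wild-type DMSO ordered the genes from H3F3A at 195 ± 2.15 CPM per kb to H2AFJ at 5.82 ± 1.22 (SD, n = 3). H2AFZ followed H3F3A at 183 ± 8.13, and their libraries, at 178 to 192 against 193 to 198, did not overlap. H1F0 was at 85.9 ± 1.75, H3F3B at 75.5 ± 4.54, H1FX at 63.0 ± 3.39, H2AFX at 46.5 ± 2.46, H2AFY at 40.3 ± 1.36 and H2AFV at 21.7 ± 0.777. The lowest were H2AFY2 at 6.52 ± 0.21 and H2AFJ, the only neighbours in this order whose libraries overlapped. In wild-type JQ1, H3F3A led at 261 ± 4.1, and H1F0 at 193 ± 3.7 and H2AFZ at 187 ± 7.24 overlapped. H2AFJ at 10.1 ± 1.12 was then above H2AFY2 at 2.83 ± 0.3. In knockout DMSO H2AFZ at 170 ± 6.74 and H3F3A at 163 ± 2.47 overlapped at the top, and in knockout JQ1 so did H3F3A at 223 ± 19.8, H2AFZ at 211 ± 15.3 and H1F0 at 196 ± 18.1. The order rests on the transcript length chosen: over the union of all exons, H1F0 at 85.9 came second to H3F3A at 116 in wild-type DMSO, and H2AFZ was at 77.7.

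Genes whose products place or remove these histones rose or fell under JQ1 in about equal number. Of 30 chaperone and exchange factor genes, all tested, 6 rose and 6 fell in wild-type and 7 rose and 5 fell in knockout cells, with medians of 0.01 and -0.03. Of all genes 33.1% and 34.4% passed in these comparisons, so 12 of 30 in each is near that background. ANP32E, which removes H2A.Z from nucleosomes, fell from 208 ± 3.37 to 127 ± 4.82 CPM in wild-type cells (log2 -0.70, adjusted p = 8.64e-06 by edgeR) and by 0.65 on the log2 scale in knockout cells (adjusted p = 1.73e-05 by edgeR). ASF1B, a chaperone of H3 and H4, rose by 0.54 (adjusted p = 9.28e-05 by edgeR) and by 0.74 (adjusted p = 4.87e-06 by edgeR). CABIN1, of the HIRA complex that deposits H3.3, rose by 0.53 in wild-type cells (adjusted p = 0.00113 by edgeR). SSRP1, a subunit of the FACT chaperone, fell by 0.36 in knockout cells (adjusted p = 3.89e-05 by edgeR). A gene given for only 1 genotype, here and in the lists below, was outside the 3 smallest adjusted p of its list in the other. In the knockout against wild type, 0 of 30 passed in DMSO by edgeR, where 7.92% of all genes did. An unadjusted p under 0.05 was reached there by 3 of the 30 and by 4274 of the 21698 genes tested. DESeq2 called 1 of the 30 in DMSO and 2023 of all genes. In JQ1 1 was higher and 1 lower by edgeR, where 3.01% of all genes were higher and 5.56% lower. NASP, an H1 and H3 chaperone, was the higher one, at 0.34 (adjusted p = 0.0019 by edgeR).

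Other histone genes outside the 10 were counted in the same way. Of 24 further variant and linker genes 12 were tested, and 3 rose and 1 fell with JQ1 in wild-type cells and 3 rose and 3 fell in knockout cells, beside 33.1% and 34.4% of all genes called. HIST1H1D, a replication-dependent linker histone, was the most abundant named at 843 ± 8.62 CPM in wild-type DMSO. It fell by 0.33 (adjusted p = 0.000598 by edgeR) and by 0.30 (adjusted p = 0.00104 by edgeR). HIST3H2A rose by 0.44 (adjusted p = 0.003 by edgeR) and by 0.55 (adjusted p = 0.000668 by edgeR), and HIST1H1A, another replication-dependent linker histone, by 0.31 (adjusted p = 0.0127 by edgeR) and by 0.40 (adjusted p = 0.00319 by edgeR). In the knockout 4 of the 12 were lower and 0 higher in each treatment, where 4.44% and 5.56% of all genes were lower. HIST1H1A was among the 4, at -0.80 in DMSO (adjusted p = 4.48e-05 by edgeR) and -0.71 in JQ1 (adjusted p = 0.000111 by edgeR). HIST3H2A held 52.1 ± 1.87 CPM in wild-type and 35.4 ± 0.723 CPM in knockout DMSO, and 70.8 ± 5.04 and 51.6 ± 9.26 CPM in JQ1 (SD, n = 3). The part of chromosome position, such as distal to MAPKAPK2, in these counts was not tested. Messages without a poly(A) tail are kept by the depletion of ribosomal RNA used here.

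Markers of dividing cells did not move one way. Of 18 proliferation markers, 4 rose and 5 fell with JQ1 in wild-type cells and 6 rose and 4 fell in knockout cells, with medians of -0.04 and 0.02, beside 33.1% and 34.4% of all genes called. PCNA, the sliding clamp of DNA replication, rose by 0.45 (adjusted p = 1.68e-05 by edgeR) and by 0.52 (adjusted p = 3.42e-06 by edgeR), and RRM2, a ribonucleotide reductase subunit, by 0.28 (adjusted p = 0.000626 by edgeR) and by 0.61 (adjusted p = 5.09e-07 by edgeR). E2F1, an S-phase transcription factor, rose by 0.65 in knockout cells (adjusted p = 0.000104 by edgeR), and MCM5, a helicase subunit, fell by 0.35 in wild-type cells (adjusted p = 0.000708 by edgeR). In the knockout 1 of 18 was lower in DMSO (RRM2, -0.20, adjusted p = 0.0249 by edgeR), and 1 was higher and 1 lower in JQ1 (MKI67, -0.25, adjusted p = 0.024 by edgeR), where 7.92% and 8.57% of all genes passed. The count in DMSO was 8 without replicate 3 of knockout JQ1, 3 and 2 without its replicates 1 and 2, 0 without replicate 2 or 3 of wild-type DMSO or replicate 3 of knockout DMSO, and 7 in a fit of only the DMSO groups. The count in JQ1 was 0 without any single library of wild-type JQ1 and 1 without replicate 1 or 3 of knockout JQ1.

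Of 13 genes linked to quiescence or differentiation 12 were tested, and 7 rose and 2 fell in wild-type and 7 rose and 3 fell in knockout cells, with medians of 0.41 and 0.46, where 16.9% and 16.7% of all genes rose and 16.2% and 17.8% fell. CDKN1A, the inhibitor p21 of cyclin-dependent kinases, rose from 57.7 ± 1.86 to 149 ± 6.54 CPM in wild-type cells (log2 1.36, adjusted p = 1.55e-09 by edgeR) and by 1.04 in knockout cells (adjusted p = 1.3e-08 by edgeR). HEXIM1, an inhibitor of the elongation kinase P-TEFb that is known to respond to BET inhibitors, rose by 0.79 (adjusted p = 4.11e-07 by edgeR) and by 0.78 (adjusted p = 3.92e-07 by edgeR). TXNIP, which binds thioredoxin, rose by 0.77 in wild-type cells (adjusted p = 4.74e-06 by edgeR), and the antiproliferative gene BTG1 by 0.44 in knockout cells (adjusted p = 8.96e-06 by edgeR). In the knockout, 3 of the 12 were higher and 2 lower in DMSO, where 3.47% of all genes were higher and 4.44% lower. In JQ1 1 was higher and 0 lower, where 3.01% of all genes were higher and 5.56% lower. CDKN1A was higher in each, at 0.54 (adjusted p = 5.47e-05 by edgeR) and 0.22 (adjusted p = 0.0405 by edgeR). No gene of these 4 lists passed in the interaction by edgeR, so a gene given for only 1 genotype was not shown to respond differently in the other. An unadjusted p under 0.05 in the interaction was reached by 1 of 30 chaperone genes and 1 of 12 other histone genes. It was also reached by 3 of 18 proliferation markers and 4 of 12 quiescence-linked genes, beside 1817 of all 21698 genes. DESeq2 called 1 proliferation marker and 1 quiescence-linked gene, beside 130 of all genes.

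The genes most like H1F0 across the 12 libraries were found by Pearson's r of log2 CPM among 11241 other genes that averaged 5 CPM or more. The highest were DRAP1 and HEXIM1 at 0.996 and FAM89B, TIMP1 and AFAP1L2 at 0.995, and the lowest were DDX60 at -0.995 and FGD4 and PDE3A at -0.994. The 12 libraries include 6 with and 6 without JQ1, 11.7% of the genes had an r above 0.9, and r within a group was not computed, so the values are a description only. DRAP1 rose with JQ1 by 1.04 in wild-type and by 0.99 in knockout cells on the log2 scale, close to the 1.17 and 1.13 of H1F0.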

How the data were processed

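RNA was sequenced from 12 libraries of A375 cells, 4 groups of 3, with groups taken from genotype and treatment in the labels. The authors deposited estimated counts per gene symbol and, in another table, a normalized signal for 32828 genes. Per the submitters' processing notes, Trim Galore, cutadapt, FastQC, MultiQC, kallisto, DESeq2 and GRCh38.p10 were used; the step each served, the annotation, the versions and the use of strand are not given in the sources used here. Estimated counts can be split among near-identical copies, which touches H3F3A, H3F3B and H2AFZ most.

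Estimated counts, planned for as raw counts, were rounded to whole numbers, filtered with edgeR's filterByExpr and scaled by TMM (factors 0.926 to 1.06). One edgeR 4.0.16 quasi-likelihood model (R 4.3.3, limma 3.58.1) over the 12 libraries with a term per group gave 5 contrasts. Benjamini-Hochberg adjustment ran over all 21698 tested genes, with a threshold of 0.05. SE was derived from the fold change and its F statistic, and intervals were at 95%. Ratios of 6 gene pairs within libraries were tested by exact permutation. The model was checked on simulated counts in which few genes changed, up and down alike, in wild-type JQ1 only and at a fixed dispersion. With so few changed genes that check could not test the choice of scaling. DESeq2 1.42.0, limma on log2 of the deposited signal plus 1, other scalings and filters, a replicate block, and leaving out each library were alternatives. With about 25316899 to 34594295 counts a library, each member held 90 counts (H2AFJ) or more in every library.

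Coordinates and lengths came from GENCODE 29 (GRCh38) by symbol, whose main chromosomes are those of GRCh38.p10. Promoters are RefSeq's (GRCh38.p14). The 10 genes and the gene lists were chosen with earlier results of these data known, among them the rise of H1F0 and the lower expression distal to MAPKAPK2, so they are no independent support for either. Named genes were the 10 members, MAPKAPK2 and HEXIM1, up to 3 genes a list with the smallest adjusted p in each JQ1 contrast and 1 in each knockout contrast, the 5 most and 3 least like H1F0, and copy or antisense genes averaging 1 CPM or more. Amino acid sequences were not used here.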

Additional observations from a re-analysis of the deposited data

How the results depend on the processing

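The JQ1 responses of the 10 genes held their direction and call under all 24 alternatives for 8 of them in both genotypes; the exceptions, H2AFY and H2AFZ, rest on scaling by library totals, which made the JQ1 response of H2AFZ in wild-type cells -0.094. The same scaling reversed differences near 0: H1F0 in JQ1 (-0.013), H2AFY in DMSO (-0.01), H3F3B in DMSO (-0.042) and the H1FX interaction (0.002). H2AFX in DMSO became 0.003 with DESeq2's size factors, its Wald test, limma on the signal and the authors' factors, and the H3F3B interaction became -0.086 with those factors and -0.089 in limma. Leaving out 1 library reversed values that had not passed, whose ranges were -0.034 to 0.041 (H2AFX) and -0.037 to 0.058 (H3F3B) in DMSO, -0.058 to 0.069 (H1F0), -0.008 to 0.115 (H2AFY) and -0.281 to 0.051 (H2AFY2) in JQ1, and, for the interaction, -0.114 to 0.013 (H1F0), -0.154 to 0.059 (H1FX), -0.046 to 0.077 (H2AFY) and -0.014 to 0.105 (H3F3A). With 1 library left out, 0 to 1 members passed in the knockout in DMSO and 0 to 3 in JQ1. In JQ1 1 passed under library totals, without the filter, with limma or with the authors' factors (tried after seeing the data), and 0 with only the groups compared. All 6 ratios kept direction and side in both comparisons in the alternatives run for them, which were the deposited signal and leaving out each library. Among list counts, chaperones in the knockout moved to 1 in DMSO by DESeq2's test, limma, the authors' factors or only the groups compared, to 1 in JQ1 under DESeq2's size factors, limma, the authors' factors, only the groups compared, the block, no filter or a stricter one, and to 7 for JQ1 in knockout cells with only those groups. Other histones in JQ1 moved to 7 under library totals and 2 with only the groups. Proliferation markers in DMSO moved to 4 (DESeq2), 2 (counts not rounded, stricter filter), 3 (library totals) and 7 (groups only), in JQ1 to 4 (DESeq2, stricter filter), 1 (library totals) and 0 (groups only), and in the interaction to 1 (DESeq2). Quiescence-linked genes moved to 0 in JQ1 under library totals, no filter, groups only and the block, and to 1 in the interaction by DESeq2. Leaving out 1 library gave 7 to 15 chaperones and 2 to 5 other histones for JQ1 in wild-type cells. For the knockout it gave, in DMSO and then JQ1, 0 to 1 and 1 to 2 chaperones, 0 to 8 and 0 to 2 proliferation markers, and 3 to 5 and 0 to 1 quiescence-linked genes, with 2 to 6 other histones in JQ1 and 0 to 1 quiescence-linked genes in the interaction. The cause of these moves was not tested. Over all genes, only the groups compared gave 2619 calls for the knockout in DMSO and 922 in JQ1, against 1718 and 1860, library totals split the former into 516 higher and 1158 lower against 754 and 964, and interaction calls ran from 8 to 88 with 1 library left out and reached 130 with DESeq2 and 236 without the filter, against 29. Same-numbered libraries did not deviate together (r of -0.115 to 0.079 over 18 pairs), so the numbers were not taken as pairs; with the replicate block 9, 10, 1, 2 and 0 members passed in the 5 contrasts, as without it, and over all genes calls fell to 6789, 7136, 1487, 1569 and 21. H2AFJ had the fewest counts of the 10, 90 to 228 a library.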
